A study of Mus musculus with 9 samples.

Results

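The genes described here encode the dopamine and adenosine receptors of striatal projection neurons (SPN) and the proteins that relay or tune their signal. The list held 9 symbols, of which 8 had a row among the 44886 gene identifiers in the count files: Drd1, Drd2, Drd3, Adora2a, Gpr6, Ppp1r1b, Slc35d3 and Caly. Gpr52, an orphan receptor of SPN, had no identifier that could be matched to GENCODE M21 and was not analysed here. Striatal tissue was taken from 9 individual mouse embryos at E17.5 (embryonic day). There were 3 Control embryos, 3 mutants named Islet1Cre;Ebf1fl/-, and 3 mutants that the labels call Dlx5/6::Cre;Ebf1fl/-. The mutants carried 1 floxed and 1 null allele of Ebf1, a transcription factor made by one class of SPN, together with a Cre driver, on a background labelled C57BL/6. According to the methods of the study, heterozygous embryos served as controls, although the labels do not give their alleles or whether they carried Cre, and the Islet1Cre line was kept on a B6D2F1/J background. Islet1Cre recombines in SPN of the direct pathway and in cholinergic interneurons, and Dlx5/6::Cre in all SPN and interneurons, while other cells of the tissue keep their floxed allele. Both mutants are compared with the same 3 Control embryos. The comparison asks which of these genes depend on Ebf1 at the end of gestation.

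SPN fall into 2 classes. Direct-pathway neurons (dSPN) carry the dopamine receptor Drd1, which couples to the stimulatory G proteins Gs and Golf and raises cAMP, whereas indirect-pathway neurons (iSPN) carry Drd2, which couples to inhibitory Gi and Go proteins. In iSPN the adenosine receptor Adora2a raises cAMP and opposes Drd2, and the constitutively active orphan receptor Gpr6 does so too. Both classes hold DARPP-32, the product of Ppp1r1b, which inhibits protein phosphatase 1 once protein kinase A has phosphorylated it. Slc35d3 is a nucleotide sugar transporter-like protein of the endoplasmic reticulum known for carrying the Drd1 receptor towards the cell surface, and Caly (calcyon) is a vesicle protein first described as a partner of Drd1. Drd3 is a further receptor of the Drd2 class, best known from the ventral striatum.

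The libraries held between 16.5 and 41.5 M counted reads, the fewest in Islet1Cre;Ebf1fl/- replicate 3. Counts of Ebf1 itself were not lower in the labelled mutants. Normalized counts, which are counts divided by the library's size factor, were 7945, 14208 and 9697 in Control, 15343, 13866 and 13210 in Islet1Cre;Ebf1fl/- and 11774, 13079 and 15312 in Dlx5/6::Cre;Ebf1fl/-. A whole-gene count still includes reads from exons outside a deletion, so these values check no genotype, and every direction given here rests on the labels. In 2 libraries, Control replicate 3 and Islet1Cre;Ebf1fl/- replicate 3, transcripts of 4 Y-linked genes (9.69 and 82.7 CPM in sum, where CPM is a gene's count scaled to a common library total) stood beside Xist (396 and 245 CPM). Each of the other 7 libraries had one kind with at most a trace of the other. Markers of cortical excitatory neurons summed to between 996 and 2343 normalized counts in Control, 937 and 1779 in Islet1Cre;Ebf1fl/- and 2369 and 5495 in Dlx5/6::Cre;Ebf1fl/-, with the highest sum in replicate 1, which also had the highest sum of progenitor and glial markers (34021, against 16689 to 24500 in the other 8 libraries). Control replicate 1 had the highest sum of red cell markers (17079, against 8082 to 12078). SPN markers such as Bcl11b and Meis2 were high in all 9 libraries, which does not show how cleanly each striatum was dissected. In bulk tissue, fewer cells of a class and less RNA per cell cannot be told apart.

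Of the 8 genes found, 7 passed the filter on low counts and 1 of these, Slc35d3, differed from Control beyond the spread between embryos, in both mutants. Normalized counts of Slc35d3 were 1159, 978 and 1007 in Control, 613, 682 and 752 in Islet1Cre;Ebf1fl/- and 511, 632 and 534 in Dlx5/6::Cre;Ebf1fl/-. All 6 mutant embryos lay below all 3 controls. The log2 fold change was -0.62 ± 0.12 (SE) in Islet1Cre;Ebf1fl/- (edgeR quasi-likelihood test, n = 3 embryos a genotype, adjusted p = 0.0408) and -0.91 ± 0.12 in Dlx5/6::Cre;Ebf1fl/- (adjusted p = 0.00425), or 0.649 and 0.533 of the Control level. Of all 16368 genes tested, 0.971% passed an adjusted p of 0.05 in Islet1Cre;Ebf1fl/- (0.501% lower, 0.47% higher) and 2.39% in Dlx5/6::Cre;Ebf1fl/- (1.34% lower, 1.05% higher). Every mutant embryo lay below every control for 7.28% and 11.3% of all genes. The average of both mutants stood -0.77 from Control on the log2 scale (95% interval -0.99 to -0.54, edgeR adjusted p = 0.00326), in a comparison that called 2.76% of all genes, 1.56% as lower, and 4.08% had every mutant embryo below every control. The decrease in Dlx5/6::Cre;Ebf1fl/- passed the threshold in each of 9 fits that left out 1 embryo. In Islet1Cre;Ebf1fl/- it passed in 2 of 9, those without Dlx5/6::Cre;Ebf1fl/- replicate 1 or 2, with adjusted p up to 0.20 in the others, and it missed the threshold without the 2 libraries that hold both Xist and Y-linked reads (adjusted p = 0.182; Dlx5/6::Cre;Ebf1fl/- 0.0271).

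Slc35d3 lies on the minus strand of chromosome 10 (chr10:19847916-19851459, GRCm38) as 2 exon blocks with no annotated gene overlapping them. Because the deleted gene encodes a DNA-binding factor, the sequence in front of Slc35d3 is shown with that of Drd1, the receptor it serves (chr13:54051183-54055705, minus strand). Each run holds the 250 bases before the RefSeq start site, 5′ to 3′ along the gene's strand, at chr10:19851460-19851709 for Slc35d3 and chr13:54055659-54055908 for the farther upstream of 2 listed starts of Drd1 (GRCm38.p6).
Slc35d3: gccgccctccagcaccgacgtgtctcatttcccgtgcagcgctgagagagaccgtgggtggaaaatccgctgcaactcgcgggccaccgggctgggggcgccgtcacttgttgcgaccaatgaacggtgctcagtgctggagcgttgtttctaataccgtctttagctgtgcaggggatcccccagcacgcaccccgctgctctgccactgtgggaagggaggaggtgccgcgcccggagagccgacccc
Drd1: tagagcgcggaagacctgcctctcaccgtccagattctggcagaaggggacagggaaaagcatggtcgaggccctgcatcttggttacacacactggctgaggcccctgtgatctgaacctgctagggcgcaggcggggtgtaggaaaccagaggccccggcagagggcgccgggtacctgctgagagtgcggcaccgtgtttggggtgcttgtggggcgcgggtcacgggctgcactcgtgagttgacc
The 8-base motif CCCNNGGG, the palindromic core of the site bound by early B-cell factors, reads the same on both strands and was searched in these bases and the 50 after each start. It was present in 13.7% of 32851 RefSeq windows of this length and once each in those of Slc35d3 and Drd2. The windows of Drd1, Caly, Drd3 and Gpr6 did not hold these letters, and none was given for Adora2a or Ppp1r1b. These matches are shown in capitals with 6 bases on either side, the first at position 16 from the start site of Slc35d3 and the second at position -98 of Drd2.
Slc35d3 match: tggatgCCCCAGGGaagcag
Drd2 match: gcctgtCCCAGGGGcggggt
A match of this kind describes the letters only, and binding was not measured.

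Among the genes of the Drd1 signal, Drd1 itself was higher on average in the mutants and did not pass the threshold. Its normalized counts were 832, 1622 and 1830 in Control, 2438, 2270 and 2107 in Islet1Cre;Ebf1fl/- and 1728, 2200 and 2273 in Dlx5/6::Cre;Ebf1fl/-. All Islet1Cre;Ebf1fl/- embryos lay above Control, as 7.83% of all genes did, while 1 Dlx5/6::Cre;Ebf1fl/- embryo lay within the Control range. Control replicate 1, the library with the most red cell reads, was the lowest of the 9, and the coefficient of variation was 36.9% in Control against 7.30% and 14.3% in the mutants. The log2 fold change was 0.67 ± 0.23 in Islet1Cre;Ebf1fl/- (edgeR adjusted p = 0.346) and 0.53 ± 0.23 in Dlx5/6::Cre;Ebf1fl/- (adjusted p = 0.293), and their average was 0.60 (95% interval 0.15 to 1.05, adjusted p = 0.207). Without Control replicate 1 these values were 0.40, 0.26 and 0.33. That average passed the threshold under DESeq2 (adjusted p = 0.0440) and when edgeR kept the low-count genes (0.0303).

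Caly followed Drd1 in direction. Control embryos had 2429, 2959 and 2906 normalized counts, Islet1Cre;Ebf1fl/- embryos 4288, 3150 and 3642, and Dlx5/6::Cre;Ebf1fl/- embryos 2482, 3934 and 3794. The first mutant lay above Control throughout, as 7.83% of all genes did. In the second, replicate 1, the library rich in cortical and progenitor reads, fell within the Control range. The log2 fold change was 0.41 ± 0.17 and 0.30 ± 0.17 (edgeR adjusted p = 0.522 and 0.415). Averaged over both mutants it was 0.36, with adjusted p = 0.332, or 0.0267 once Dlx5/6::Cre;Ebf1fl/- replicate 1 was left out.

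Ppp1r1b, shared by both SPN classes, was the most abundant of these genes and overlapped between all genotypes. Its normalized counts were 6482, 7686 and 9248 in Control, 9595, 7355 and 9414 in Islet1Cre;Ebf1fl/- and 5608, 7487 and 7795 in Dlx5/6::Cre;Ebf1fl/-. The mutants deviated in opposite directions, with log2 fold changes of 0.17 (95% interval -0.18 to 0.52) and -0.17 (95% interval -0.52 to 0.18). The difference between them, -0.33, had an interval of -0.68 to 0.02. Of its exonic bases, 460 are shared with 1700003D09Rik on the opposite strand, and the libraries were strand-specific. According to the study, DARPP-32 protein marks the early striosome compartment at this age and appears in the surrounding matrix later.

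None of the iSPN receptors passed the test in either mutant. Drd2 counted 1584, 1696 and 2187 in Control, 2101, 1917 and 1681 in Islet1Cre;Ebf1fl/- and 1606, 2140 and 2320 in Dlx5/6::Cre;Ebf1fl/-, on the normalized scale. Its log2 fold changes were 0.06 (95% interval -0.28 to 0.40) and 0.15 (-0.19 to 0.49), so a rise or fall of more than 0.49 lay outside both intervals. Adora2a counted 4990, 4727 and 5504 in Control, 6119, 4762 and 4737 in Islet1Cre;Ebf1fl/- and 5058, 6420 and 6385 in Dlx5/6::Cre;Ebf1fl/-. Here the intervals were -0.24 to 0.31 and -0.04 to 0.50, around 0.03 and 0.23. Gpr6 was the least precise of the group, with normalized counts of 589, 478 and 793 in Control, 919, 591 and 675 in Islet1Cre;Ebf1fl/- and 629, 875 and 979 in Dlx5/6::Cre;Ebf1fl/-. The groups overlapped, and log2 fold changes of 0.23 (95% interval -0.27 to 0.72) and 0.42 (-0.07 to 0.91) leave room for differences in either direction. Drd3 had between 1 and 6 raw counts per library, too few for a test.

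**Figure D1:**
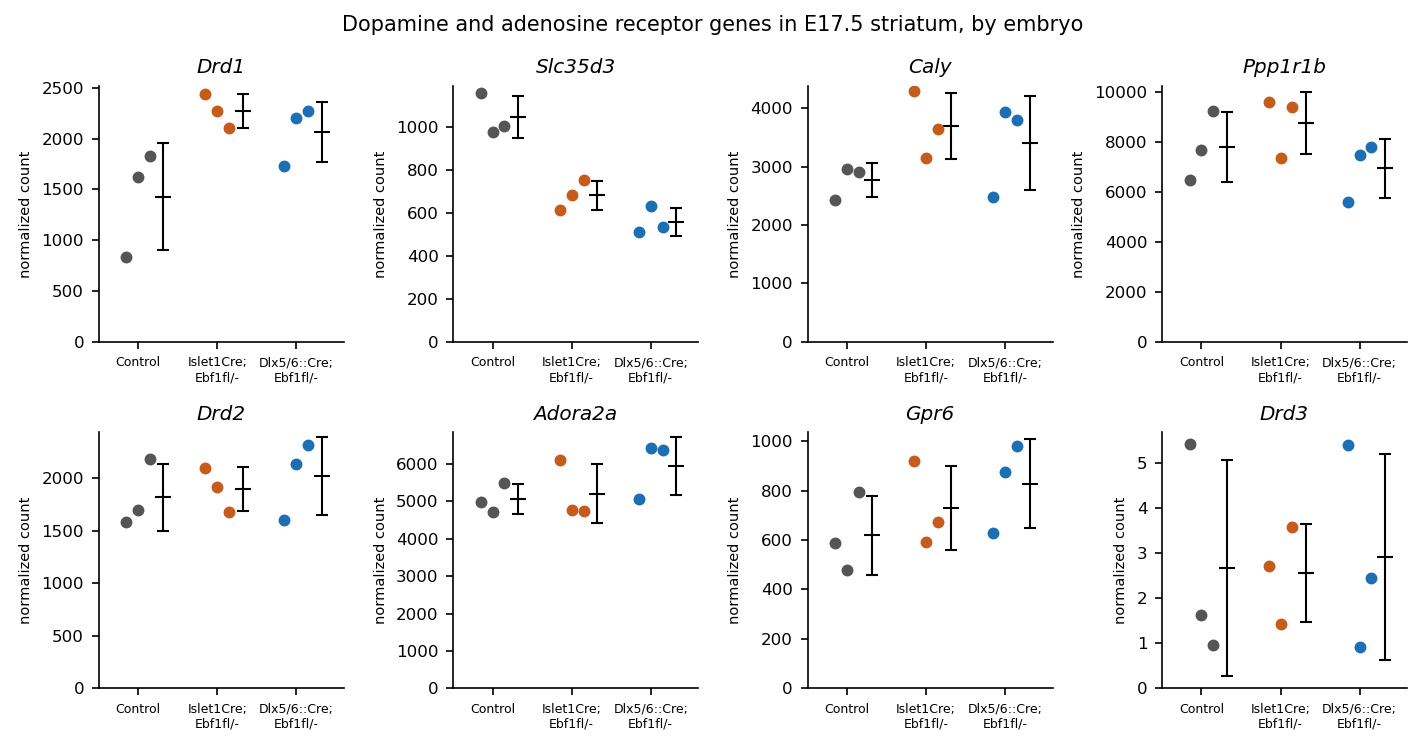
Normalized counts (vertical axis, from 0) of the 8 genes in each of the 9 embryos, with points in the order of replicates 1 to 3 and the mean ± SD beside them. Slc35d3 is the one gene whose 6 mutant points all lie below the 3 Control points, and Control replicate 1 is the lowest point of Drd1.

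**Figure D2:**
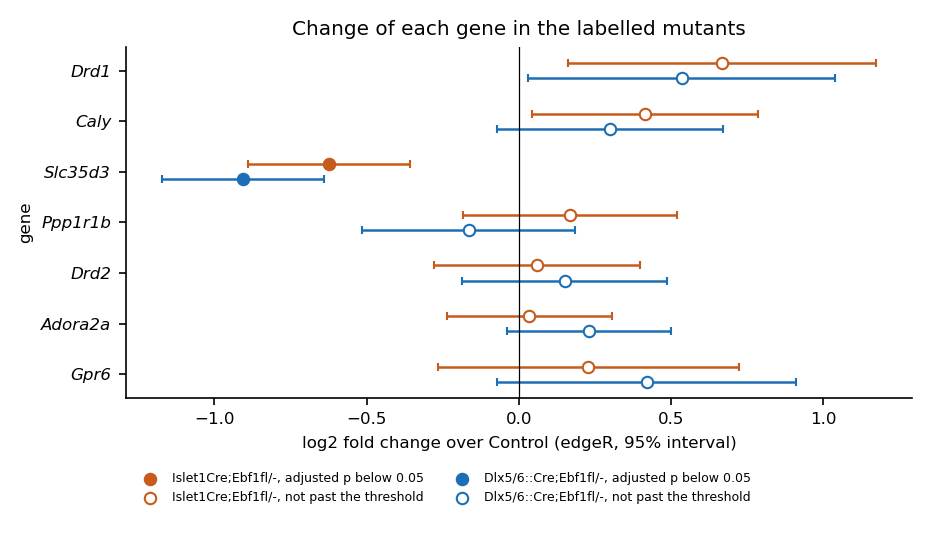
Log2 fold change over Control with 95% intervals from edgeR for the 7 genes tested, in Islet1Cre;Ebf1fl/- and Dlx5/6::Cre;Ebf1fl/-. Filled points (adjusted p below 0.05) are those of Slc35d3, at -0.62 and -0.91.

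Between the 2 mutants, 0 of the 7 genes were called by edgeR, as were 0% of all genes tested. At an unadjusted p of 0.05, 844 of 16368 genes (5.16%) passed, Slc35d3 among them (log2 difference -0.28, 95% interval -0.55 to -0.02, unadjusted p = 0.0399, adjusted p = 0.868). DESeq2 called 17 genes and edgeR without a low-count filter 13, none of them among the 7.

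Compared per kilobase of exon, so that genes of different length share a scale, the Control order was Ppp1r1b, Adora2a, Caly, Drd2, Slc35d3, Drd1, Gpr6 and Drd3. Mean levels were 2666 ± 474, 1657 ± 129, 1151 ± 122, 715 ± 126, 398 ± 37.0, 394 ± 145, 347 ± 89.4 and 1.56 ± 1.41 normalized counts per kilobase (SD, n = 3). The neighbours Slc35d3, Drd1 and Gpr6 overlapped in Control, and the other neighbours did not. In Islet1Cre;Ebf1fl/- Drd1 had a mean of 626 ± 45.7 per kilobase, and Slc35d3 stood at 259 ± 26.4, below Gpr6 (408 ± 95.4) in each embryo. In Dlx5/6::Cre;Ebf1fl/- the order of these 3 was the same, with 570 ± 81.5 for Drd1, 464 ± 101 for Gpr6 and 212 ± 24.5 for Slc35d3.

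Ratios of 2 genes within a library do not depend on the size factor. The Drd1/Drd2 ratio, which compares these 2 receptor transcripts and no other marker of either class, was 0.525, 0.956 and 0.837 in Control, 1.16, 1.18 and 1.25 in Islet1Cre;Ebf1fl/- and 1.08, 1.03 and 0.980 in Dlx5/6::Cre;Ebf1fl/-. Each of the 6 mutant values exceeded each Control value, by 0.57 on the log2 scale or 1.48-fold on average (exact two-sided permutation test over 84 splits, p = 0.0119, the smallest these splits can give; 0.0159 adjusted over 4 ratios). Sums of other markers of the classes stood the other way in Dlx5/6::Cre;Ebf1fl/-, although single markers differed in direction. The dSPN markers summed to 11919 to 14759 normalized counts against 15634 to 20704 in Control, and the iSPN markers to 18380 to 19697 against 15280 to 16915. Slc35d3/Drd1 was 1.39, 0.603 and 0.551 in Control, 0.251, 0.300 and 0.357 in Islet1Cre;Ebf1fl/- and 0.295, 0.287 and 0.235 in Dlx5/6::Cre;Ebf1fl/-. Relative to the receptor it carries, Slc35d3 transcript was thus at 0.369 of the Control level (log2 -1.44, exact permutation p = 0.0119, adjusted 0.0159). This ratio combines the counts of both genes given above and is no separate evidence of lower Slc35d3. Ppp1r1b/Drd1 was 7.79, 4.74 and 5.06 in Control against 3.24 to 4.47 in the mutants (0.629 of the Control level, exact permutation p = 0.0119, adjusted 0.0159). Adora2a/Drd2, both of iSPN, ranged from 2.52 to 3.15 in Control and from 2.48 to 3.15 in the mutants (log2 difference 0.02, exact permutation p = 0.869). The first 3 ratios share Drd1 and are not independent, and for a single mutant the smallest exact p of 3 against 3 embryos is 0.1, which these 3 ratios reached. Without Control replicate 1 the log2 differences were 0.31, -1.01 and -0.45, each with exact permutation p = 0.0357, and every mutant value still lay on the same side of both remaining controls.

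**Figure D3:**
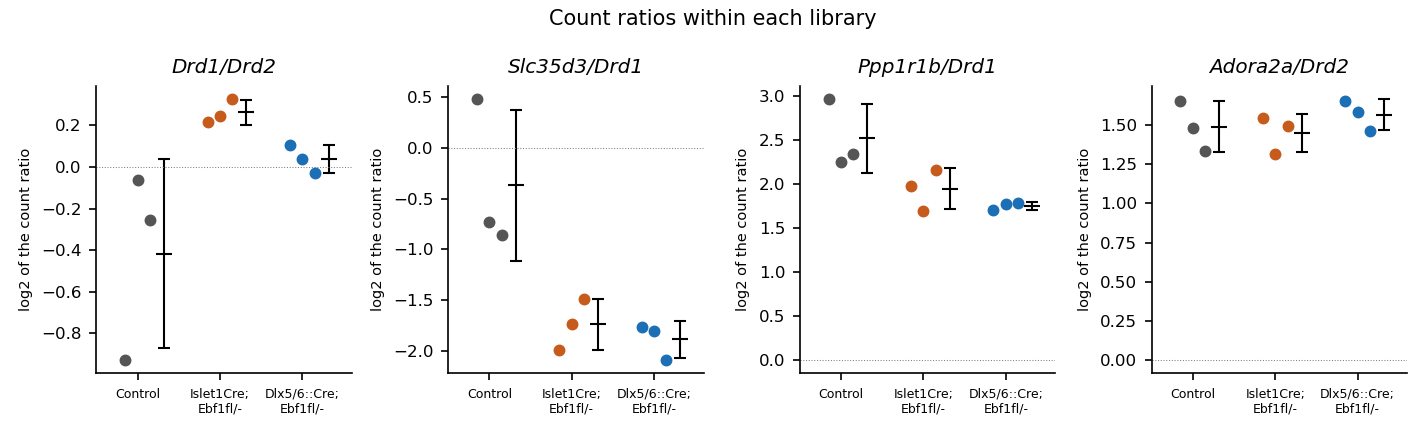
Log2 ratio of the raw counts of 2 genes within each library (vertical axis), by genotype, with points in the order of replicates and the mean ± SD beside them. The mutants lie above Control for Drd1/Drd2, below it for Slc35d3/Drd1 and Ppp1r1b/Drd1, and overlap it for Adora2a/Drd2.

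The labels give each embryo a code that begins with IE or D. All Islet1Cre;Ebf1fl/- embryos and 2 controls carried IE, and all Dlx5/6::Cre;Ebf1fl/- embryos and Control replicate 3 carried D, so the letters largely follow the genotype. Within each set Slc35d3 was lower in every mutant embryo, by -0.65 (IE) and -0.86 (D) on the log2 scale. For Drd1 the difference was 0.96 among IE embryos, where all mutants lay above both controls, and 0.17 among D embryos, where they did not. How many of all genes separate in sets this small was not counted. Control replicate 3, a library with both Xist and Y-linked reads, was the only control of the D set. With the letters as a covariate, edgeR gave Slc35d3 an adjusted p of 0.109 in Islet1Cre;Ebf1fl/-, 0.111 in Dlx5/6::Cre;Ebf1fl/- and 0.0112 averaged over both.

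Leaving aside Slc35d3, whose mutant and Control embryos formed separate groups, the other 6 genes formed 15 pairs whose Pearson correlation over the 9 embryos ranged from 0.23 (Adora2a and Ppp1r1b) to 0.91. All 15 were above 0, also after the genotype means were subtracted, and how often other genes do so was not tested. Of 21 pairs with Slc35d3 included, 16 were above 0, and the lowest was Drd1 with Slc35d3 (-0.69, or -0.43 within genotypes). After adjustment, 2 of the 21 passed by Pearson's r. The permutation exchanged embryos across genotypes, so its p-values do not separate covariation between embryos from differences shared by a genotype. Adora2a and Gpr6, both of iSPN, had r = 0.91 (exact permutation p = 0.00086, adjusted 0.0181; Spearman's rho 0.83, exact permutation p = 0.00827, adjusted 0.0868), 0.87 without the 2 embryos farthest from the median and 0.92 within genotypes. Drd1 and Caly had r = 0.77 (exact permutation p = 0.00181, adjusted 0.0190; rho 0.87, exact permutation p = 0.00451, adjusted 0.0868), 0.88 without the 2 farthest and 0.61 within genotypes. All genes of an embryo come from 1 dissection and 1 library, and the part of depth or tissue makeup in these values was not tested.

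**Figure D4:**
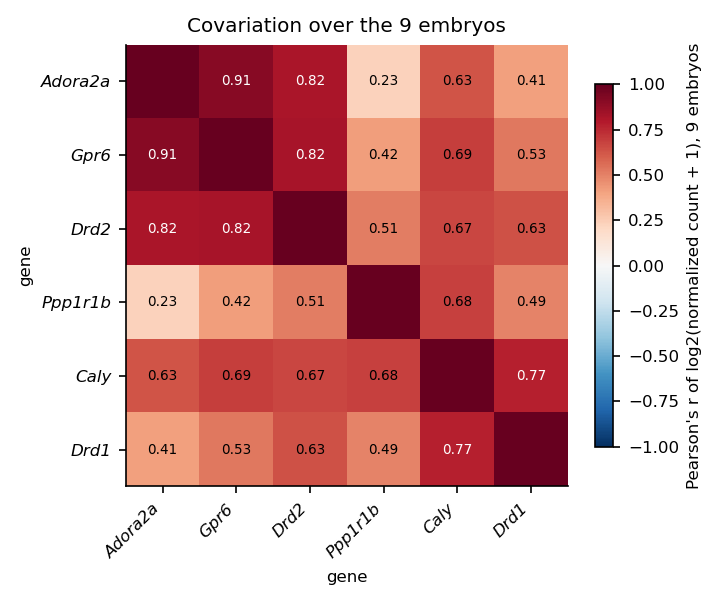
Pearson's r of log2(normalized count + 1) over the 9 embryos for each pair of 6 genes (rows and columns), from -1 (blue) to 1 (red). The iSPN genes Adora2a, Gpr6 and Drd2 form the pairs of highest r (0.82 to 0.91), followed by Caly with Drd1 (0.77).

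Among 12051 genes with a mean normalized count of at least 100, those among the 3 with the highest r to each member over the 9 embryos were as follows, as a description. For Slc35d3 these were Tgfb2 (0.99), Pald1 (0.99) and Gpr26 (0.98), and for Drd1 Ptchd4 (0.98), Pcsk2 (0.98) and Lmbrd2 (0.97). Drd2 had Uqcrb (0.97) and Tmem263 (0.94) among its 3, and Adora2a had Nudt19 (0.93), Saraf (0.92) and Dmwd (0.91). Gpr6 had Btrc (0.97), Adora2a (0.91) and Acer2 (0.90), Ppp1r1b had Leng9 (0.95), Rap1a (0.94) and Ddn (0.93), and Caly had Tmx2 (0.97), Ica1 (0.97) and Atp6v1g2 (0.96). Adora2a was the one gene of the receptor group that appeared in another member's top 3.

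The signal around the receptors was covered by 95 genes in 9 lists, of which 89 were tested. In Islet1Cre;Ebf1fl/- 1 gene was higher and 3 were lower (edgeR adjusted p below 0.05), and in Dlx5/6::Cre;Ebf1fl/- 1 was higher and 7 lower, that is 4 and 8 of 89 where 0.971% and 2.39% of all genes were called. The lists were chosen with earlier results of these data known, so these counts cannot show an excess. The median log2 fold change over the 89 was -0.01 and 0.02, against -0.002 and 0.01 over all genes.

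Of 4 other dopamine and adenosine receptors tested, Adora1 was lower in both mutants. This inhibitory adenosine receptor couples to Gi and opposes Adora2a and Drd1 on cAMP. Its normalized counts were 3762, 3648 and 4054 in Control, 2430, 2128 and 2477 in Islet1Cre;Ebf1fl/- and 1682, 2292 and 2366 in Dlx5/6::Cre;Ebf1fl/-. No mutant embryo reached a control, as for 4.08% of all genes, and the log2 fold changes were -0.71 ± 0.12 (edgeR adjusted p = 0.0250) and -0.85 ± 0.12 (0.00524). Drd4, next in abundance, had means of 29.3, 40.9 and 34.8 normalized counts in Control, Islet1Cre;Ebf1fl/- and Dlx5/6::Cre;Ebf1fl/-.

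Of 18 genes of Gs and Golf coupling, adenylyl cyclase and protein kinase A, Adcy8, a calcium-stimulated adenylyl cyclase, was higher in both. It counted 36.2, 53.1 and 39.4 in Control, 242, 233 and 127 in Islet1Cre;Ebf1fl/- and 182, 227 and 288 in Dlx5/6::Cre;Ebf1fl/-, on the normalized scale. It was thus a low transcript in Control that rose 4.68-fold and 5.39-fold (edgeR adjusted p = 0.00904 and 0.00245). Adcy8 lay above every control in all 6 mutant embryos, as did 3.63% of all genes (9.63% for Dlx5/6::Cre;Ebf1fl/- alone). The other 17 genes of the list were not called, among them the G protein subunits Gnas and Gnb1, the most abundant of it.

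Of 15 genes of Gi and Go proteins, receptor kinases, arrestins and RGS proteins, 2 were lower in both mutants. Rgs4, which speeds the shut-off of Gi and Gq signals, counted 12359, 11293 and 13492 in Control, 3376, 2833 and 6443 in Islet1Cre;Ebf1fl/- and 1423, 2951 and 2669 in Dlx5/6::Cre;Ebf1fl/-. Islet1Cre;Ebf1fl/- replicate 3, a library with both Xist and Y-linked reads, was the mutant nearest to Control. The log2 fold changes were -1.56 ± 0.31 (edgeR adjusted p = 0.0455) and -2.40 ± 0.32 (0.00429). Grk5, a kinase that phosphorylates active receptors, counted 1151, 1109 and 1030 in Control, 432, 468 and 600 in Islet1Cre;Ebf1fl/- and 353, 496 and 508 in Dlx5/6::Cre;Ebf1fl/-. It was at 0.453 and 0.413 of Control (edgeR adjusted p = 0.0116 and 0.00297). As for 4.08% of all genes, every mutant embryo lay below every control. The G protein subunits Gnao1 and Gnai2, the most abundant of the list over all 9 embryos, did not pass, although in Control the mean of Rgs4 (12382) was above that of Gnai2 (6990 normalized counts). Gnai1, a further subunit, passed as higher only in the average of both mutants (edgeR adjusted p below 0.05). It counted 794, 1188 and 1303 in Control, 1979, 1806 and 1636 in Islet1Cre;Ebf1fl/- and 1379, 2051 and 2056 in Dlx5/6::Cre;Ebf1fl/-. Every mutant embryo lay above every control, as for 3.63% of all genes.

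Of 7 cAMP phosphodiesterases tested, 2 were lower in Dlx5/6::Cre;Ebf1fl/-. Pde10a, the main phosphodiesterase of SPN, counted 11349, 12291 and 12968 in Control, 8156, 8823 and 10103 in Islet1Cre;Ebf1fl/- and 5901, 8038 and 8411 in Dlx5/6::Cre;Ebf1fl/-. Its log2 fold change was -0.44 (edgeR adjusted p = 0.243) in the first mutant and -0.71 (0.0206) in the second. Pde7b, specific for cAMP, followed the same order of genotypes, with means of 2757 ± 169, 1867 ± 345 and 1500 ± 264 (SD, n = 3) and log2 fold changes of -0.57 (adjusted p = 0.138) and -0.88 (0.0130). In all 6 mutant embryos both genes lay below Control, as did 4.08% of all genes. The difference between the mutants was not called (edgeR adjusted p = 0.868 for both).

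Of 10 dopamine receptor interacting proteins, Clic6, a chloride channel protein that binds Drd2-class receptors, was called in Dlx5/6::Cre;Ebf1fl/- (log2 fold change -1.33 ± 0.29, edgeR adjusted p = 0.0370). It had 191, 233 and 139 normalized counts in Control, 125, 76.6 and 145 in Islet1Cre;Ebf1fl/-, where it overlapped Control, and 58.3, 90.1 and 74.2 in Dlx5/6::Cre;Ebf1fl/-. Of 9 genes of adenosine supply and removal, the equilibrative transporter Slc29a1 fell in Dlx5/6::Cre;Ebf1fl/-, from a mean of 2121 ± 130 to 1553 ± 76.1 (adjusted p = 0.0206), and stood at 1934 ± 143 in Islet1Cre;Ebf1fl/-. No gene was called among 13 phosphatases and kinases of DARPP-32, 7 paralogues of the members or 6 genes of dopamine synthesis, transport and breakdown in either mutant. The summed level of the dopamine list was 1281 to 1663 normalized counts in Control, 1805 to 2063 in Islet1Cre;Ebf1fl/- and 1912 to 1992 in Dlx5/6::Cre;Ebf1fl/-. It was above every control in all 6 mutant embryos, as were 3.63% of all genes taken singly. How often sums of other genes do so was not counted. Maoa, a breakdown enzyme and the most abundant gene of the list, had means of 822, 1033 and 1092 in these genotypes. The 4 markers of midbrain dopamine neurons, some of them shared with this list, summed to 449 to 702, 599 to 912 and 605 to 906. Among them Th, which makes the dopamine precursor, had means of 379, 423 and 321. The vesicle transporter Slc18a2 had means of 194 ± 42.9, 356 ± 121 and 385 ± 283 (SD, n = 3). In Dlx5/6::Cre;Ebf1fl/- its counts were 709, 188 and 258, so that mean rests on replicate 1. Slc6a3 and Pitx3, which define these neurons, had means of 13.8 or fewer in each genotype.

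**Figure D5:**
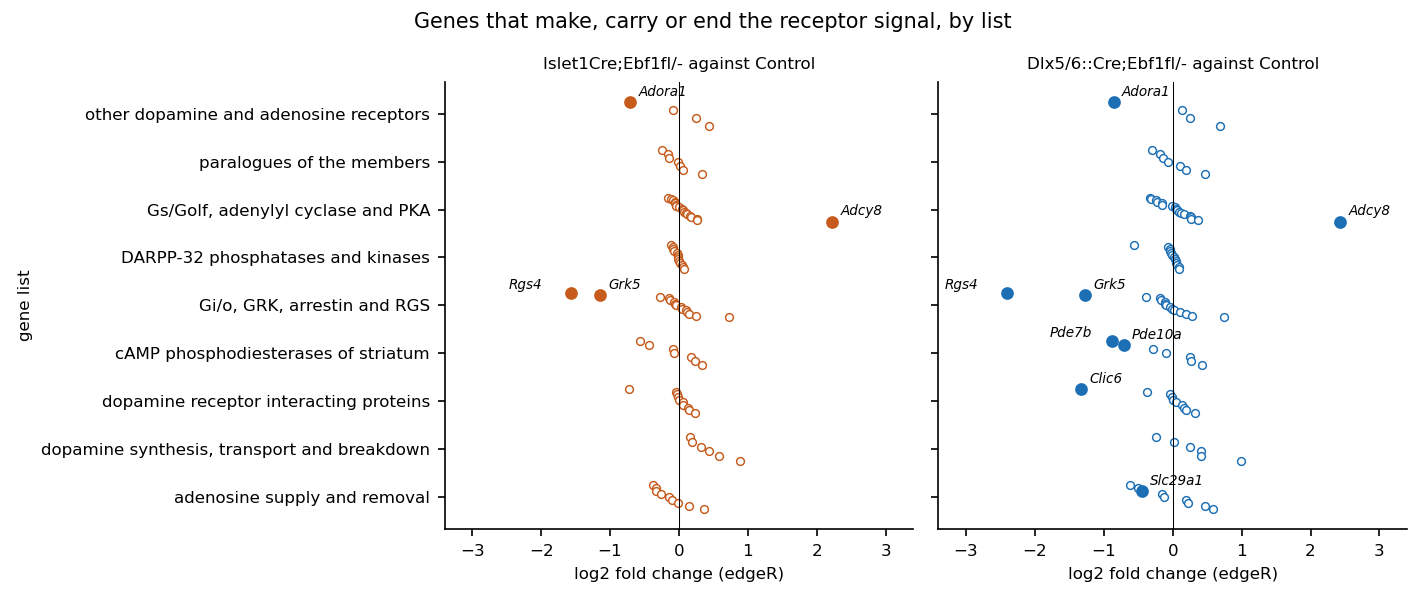
Log2 fold change over Control (horizontal axis, edgeR) of the 89 pathway genes tested, by list (rows), in Islet1Cre;Ebf1fl/- and Dlx5/6::Cre;Ebf1fl/-. Filled and named points have an adjusted p below 0.05: 4 in the first mutant and 8 in the second, with Adcy8 the one to the right.

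The calls in Dlx5/6::Cre;Ebf1fl/- passed in all 9 fits without 1 embryo for Adora1, Adcy8, Rgs4 and Grk5, in 8 for Pde7b, in 6 for Pde10a and Slc29a1 and in 4 for Clic6. In Islet1Cre;Ebf1fl/- they passed in 6 of 9 for Adcy8 and Grk5 and in 3 of 9 for Adora1 and Rgs4. With the embryo code as covariate, 0 of the 8 calls in Dlx5/6::Cre;Ebf1fl/- passed (edgeR adjusted p = 0.0781 for Adora1, 0.0902 for Adcy8, 0.0527 for Rgs4 and 0.0872 for Grk5). In Islet1Cre;Ebf1fl/- Adcy8 (0.0451) and Grk5 (0.0434) passed, and Adora1 (0.0942) and Rgs4 (0.156) did not. Without the 2 libraries that hold both Xist and Y-linked reads, Adora1 missed the threshold in both mutants (0.203 and 0.0531). The sum of cortical markers was higher in Dlx5/6::Cre;Ebf1fl/- than in the other genotypes, with 6 of 6 markers above Control on average (median log2 fold change 1.01, 0 of 6 called), and in Islet1Cre;Ebf1fl/- 0 of 6 were. The part of cortical tissue in the values of the Dlx5/6::Cre;Ebf1fl/- embryos was not tested.

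Markers of the 2 SPN classes were measured beside these genes. The 7 dSPN markers other than Drd1 summed to 15634 to 20704 normalized counts in Control, 16179 to 18264 in Islet1Cre;Ebf1fl/- and 11919 to 14759 in Dlx5/6::Cre;Ebf1fl/-, where every embryo lay below Control. The 5 iSPN markers other than Drd2, Adora2a and Gpr6 summed to 15280 to 16915, 15671 to 17516 and 18380 to 19697, the last wholly above Control. In Dlx5/6::Cre;Ebf1fl/- 4 of the 5 were above Control on average and 1 was below. Grik3 had means of 4469, 5177 and 6049 normalized counts, and Ptprm had 3029, 2581 and 2855. In Dlx5/6::Cre;Ebf1fl/- replicate 1, Sp9 (4060) was the highest of the 9 libraries, and Penk (3219) and Ptprm (2208) were the lowest. Of the dSPN markers 1 was called, Chrm4, the muscarinic receptor of dSPN, which was lower in Dlx5/6::Cre;Ebf1fl/- (means of 516 ± 49.6 in Control and 184 ± 30.5 normalized counts, log2 fold change -1.48, edgeR adjusted p = 0.00391) and had 286 ± 69.6 in Islet1Cre;Ebf1fl/- (adjusted p = 0.0762). Without passing the threshold, Tac1 (-1.12), Pdyn (-0.77) and Isl1 (-0.40 on the log2 scale) lay below Control in every Dlx5/6::Cre;Ebf1fl/- embryo, and Eya1 (0.55) lay above it. Of all genes, 11.3% lay wholly below Control in this mutant and 9.63% wholly above. Of the 5 iSPN markers 0 were called in either mutant by edgeR, and the neuropeptide gene Penk had means of 4624, 4930 and 5176 normalized counts in Control, Islet1Cre;Ebf1fl/- and Dlx5/6::Cre;Ebf1fl/-. Of 11 SPN markers, some of them shared with these lists, the transcription factor Foxp1 was lower in Dlx5/6::Cre;Ebf1fl/- (log2 fold change -0.53, adjusted p = 0.0305, passing in 2 of 9 fits without 1 embryo). Drd1 and Chrm4, both receptors of dSPN, thus had log2 fold changes of opposite sign in both mutants. Drd1 was called in neither mutant and Chrm4 only in Dlx5/6::Cre;Ebf1fl/-. Of the 7 dSPN markers, 3 had a positive and 4 a negative log2 fold change in Islet1Cre;Ebf1fl/-. In Dlx5/6::Cre;Ebf1fl/- these were 2 and 5.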

How the data were processed

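Striatal RNA of 9 individual E17.5 embryos (400 ng each) had been sequenced from strand-specific mRNA libraries as 75-base reads. The deposited values are counts of reads per Ensembl gene, which the authors made by trimming and filtering reads, aligning them to mm10 with STAR 2.4.0k, discarding multi-mapped reads and counting with HTSeq 0.5.3. The authors tested them with DESeq 1.8.3.

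Here the raw counts of all 9 embryos entered 1 fit with 3 genotype groups in edgeR 4.0.16 (R 4.3.3; filterByExpr with a minimum count of 10, TMM, quasi-likelihood F test), and p-values were adjusted by Benjamini-Hochberg over 16368 genes with a threshold of 0.05. Symbols came from GENCODE M21, which held 44133 of the 44886 identifiers. Normalized counts are counts divided by DESeq2 1.42.0 size factors. Ratios were tested by exact two-sided permutation and pairs of genes by exact permutation of log2(normalized count + 1). Promoters came from RefSeq. Alternatives were DESeq2, other filters and size factors, the 6 embryos compared alone, the embryo code as covariate, a replicate block and leaving out embryos. The fit was tested on simulated data, where 72% of 200 changed genes were recovered for Islet1Cre;Ebf1fl/- against Control among 16368 genes and 7.69% of calls were false. The changes put in were larger than that of any member, so 72% does not apply to changes of the members' size. Named genes were the members, Ebf1, the listed genes called in either mutant, the 2 most abundant of a list where described, and the 3 genes most like each member, of which 1 is not reported here. Slc6a3, Pitx3, Slc18a2, Xist, Tac1, Pdyn, Eya1, Gnai1, Sp9 and Ptprm fall outside this rule and were named after their values were seen. Members and lists were chosen with earlier results of these data known.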

Additional observations from a re-analysis of the deposited data

How the results depend on the processing

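Replicate numbers did not pair the embryos, since deviations from genotype means correlated at -0.02 on average between embryos of the same number (9 pairs) and 0.01 between others (18 pairs). With the replicate number as a block, 0 members were called in Islet1Cre;Ebf1fl/- (Slc35d3, adjusted p = 0.0832), and the ratios Drd1/Drd2, Slc35d3/Drd1 and Ppp1r1b/Drd1 stayed at 0.57, -1.44 and -0.67 on the log2 scale with exact permutation p = 0.25, the smallest that 3 pairs allow. With the embryo code as covariate, 0 members were called in either mutant, pathway calls fell to 2 (Islet1Cre;Ebf1fl/-) and 0 (Dlx5/6::Cre;Ebf1fl/-), and Drd2 in Dlx5/6::Cre;Ebf1fl/- (-0.11), Drd2 and Gpr6 between the mutants (-0.32 and -0.38) and Ppp1r1b averaged over both (-0.051) changed sign. Leaving out the 2 libraries with Xist and Y-linked counts, chosen after seeing the data, gave 0 members in Islet1Cre;Ebf1fl/-, 4 pathway genes in Dlx5/6::Cre;Ebf1fl/- and 5 averaged, and turned Grk5 (0.0043) and Adcy8 (-0.034) between the mutants and Adora2a/Drd2 (-0.056, or -0.12 among IE embryos). Averaged over both mutants, 2 members passed with DESeq2 and with no filter on low counts. The cause of these changes was not tested.

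Leaving out 1 embryo at a time, members called ranged from 0 to 1 in Islet1Cre;Ebf1fl/- and from 1 to 2 averaged, and pathway genes from 0 to 7, 5 to 12 and 4 to 11 in Islet1Cre;Ebf1fl/-, Dlx5/6::Cre;Ebf1fl/- and averaged. Log2 fold changes near 0 changed sign for Drd2 (-0.031 to 0.22) and Adora2a (-0.10 to 0.10) in Islet1Cre;Ebf1fl/-, for Caly (-0.23 to 0.067), Grk5 (-0.24 to 0.016), Adcy8 (-0.026 to 0.35) and Drd2 (-0.028 to 0.23) between the mutants, for Ppp1r1b averaged (-0.11 to 0.14) and for Adora2a/Drd2 (-0.059 to 0.10). Over all genes, 159 were called in Islet1Cre;Ebf1fl/-, against 395 with DESeq2, 311 with no filter, 259 from 6 embryos, 61 with the embryo code, 52 without the 2 libraries and 15 to 397 without 1 embryo. For Dlx5/6::Cre;Ebf1fl/- these were 392, 873, 708, 181, 32, 138 and 143 to 613, and averaged 452, with 784 by DESeq2, 278 with the embryo code, 170 without the 2 libraries and 178 to 775 without 1 embryo. Intervals of Gpr6 and Drd1 are wide at 3 embryos a genotype, and Drd3 had too few counts for a test.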
